A study of Mus musculus with 23 samples.

Results

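Cartpt (Entrez 27220) is 1 of 27178 genes in the table and was found by its symbol. It was chosen by its normalized counts in these same libraries, so its levels and differences are a description. The polyA RNA of 23 samples was sequenced in bulk, each from virally infected orbitofrontal cortex (OFC) of male wild-type C57BL/6J mice, age given as 8 weeks. The groups were ZBTB7A stress (n = 5), ZBTB7A control (n = 5), GFP stress (n = 8) and GFP control (n = 5). All mice received an AAV6 vector into the OFC on day 0 that drove its cargo from a GFAP promoter, which directs expression to astrocytes. The cargo was ZBTB7A overexpression together with GFP in the ZBTB7A groups, and GFP without it in the GFP groups. Mice of the stress groups went through 1 subthreshold social defeat on day 21, a mild stressor, and those of the control groups through a control procedure. Every mouse was then tested for social interaction, sucrose preference and forced swimming between days 22 and 27, and tissue was taken on day 28.

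Cartpt encodes the precursor of the CART peptides, named after the cocaine- and amphetamine-regulated transcript. These secreted neuropeptides are cut from the precursor by prohormone convertases, stored in dense-core vesicles and released by neurons. They are best known for restraining feeding and for their part in reward and stress circuits, and the gene is abundant in the hypothalamus and the nucleus accumbens. Its transcription responds to cyclic AMP through the transcription factor CREB, which binds a cAMP response element (CRE) in the promoter.

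The CRE of Cartpt is shown because the genes of cAMP signalling and of peptide handling are described beside it. The letters TGACGTCA, a palindrome that reads the same on both strands, were searched in RefSeq promoter windows (GRCm38.p6) that run from 250 bases before to 50 bases after each start. Cartpt held it once, beginning 112 bases before the start, as did 588 of 32851 windows (1.79%). Of the fixed lists described further on, 3 of 16 peptide-processing genes with a window, 2 of 23 other neuropeptide precursors and 0 of 17 cAMP-CREB and activity genes held it. In the windows printed here, 30 bases each and 5′ to 3′ on the gene's own strand, the capitals mark the CRE.
Cartpt (chr13:99900777-99900806, minus strand): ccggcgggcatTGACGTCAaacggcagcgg
Pcsk1 (chr13:75089768-75089797, plus strand): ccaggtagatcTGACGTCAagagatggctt
Chgb (chr2:132781559-132781588, plus strand): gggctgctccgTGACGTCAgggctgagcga
Scg2 (chr1:79440076-79440105, minus strand): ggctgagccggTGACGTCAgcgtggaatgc
Sst (chr16:23890874-23890903, minus strand): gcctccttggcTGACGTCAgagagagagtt
Ucn (chr5:31138921-31138950, minus strand): atgttcttcgcTGACGTCAgtcggagctgt
Pcsk1 encodes a prohormone convertase, Chgb and Scg2 encode granins of dense-core vesicles, and Sst and Ucn encode the precursors of somatostatin and urocortin. The Cartpt window also held TATAA, the core of a TATA box, as did 24.9% of windows on either strand. It did not hold CCTTCCCC, part of the C-rich element that human ZBTB7A is known to bind in the gamma-globin promoters, on either strand, and 4.39% of windows did. A match is a description of letters and no evidence of binding.

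Between 12.5 and 51.9 M reads were recovered for a library, and the excitatory cortical markers Slc17a7, Tbr1 and Neurod6 were present in every library, at or above 608 normalized counts. Zbtb7a, the gene that the vector was meant to raise, was not higher where the label names it. The labels do not give the species of the vector's ZBTB7A, and reads from a human sequence might not be counted in mouse Zbtb7a, so these values do not show whether the transgene was expressed. It averaged 3744 ± 173 normalized counts in ZBTB7A stress, 3716 ± 247 in ZBTB7A control, 3934 ± 251 in GFP stress and 3834 ± 629 in GFP control (SD, n = 5, 5, 8 and 5). Each direction below between the viruses is therefore between libraries labelled ZBTB7A and libraries labelled GFP. The labels do not say that each library came from a separate mouse, so the spread within a group is that between these samples.

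Cartpt was highest on average in the libraries labelled ZBTB7A stress. Its normalized count, reads divided by the authors' size factor for the library, was 411, 384, 200.2, 299.6 and 466 in ZBTB7A stress 7, 9, 17, 25 and 26. In ZBTB7A control 6, 14, 15, 23 and 24 it was 192, 69.2, 113, 138 and 115. These values did not overlap: all 5 stressed libraries stood above all 5 unstressed ones under the ZBTB7A label. The same was true of 0.244% of the 16385 genes tested, and 0.177% lay wholly below. In bulk tissue, fewer cells of a type and less RNA per cell cannot be told apart.

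Under GFP the stressed libraries were the lower ones. The 8 GFP stress libraries ran from 78.8 to 202 normalized counts, with a median of 120.5, and 4 of them (3, 5, 12 and 20) lay at or below 90.5. GFP control 1, 2, 10, 11 and 19 had 241, 207, 191, 211 and 310.4 normalized counts. Of the GFP stress libraries 7 lay below the lowest GFP control, and GFP stress 22, at 202, lay within its range. Of all genes tested, 0.256% lay wholly below GFP control in GFP stress and 0.116% wholly above. Cartpt was in neither set, and the share of genes with 7 of 8 libraries below was not counted. ZBTB7A control against GFP control gave a like picture, with 4 of 5 ZBTB7A control libraries below every GFP control library, where 0.110% of genes lay wholly below and 0.116% wholly above. Here too Cartpt was in neither set, and the share of genes with 4 of 5 libraries below was not counted.

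**Figure D1:**
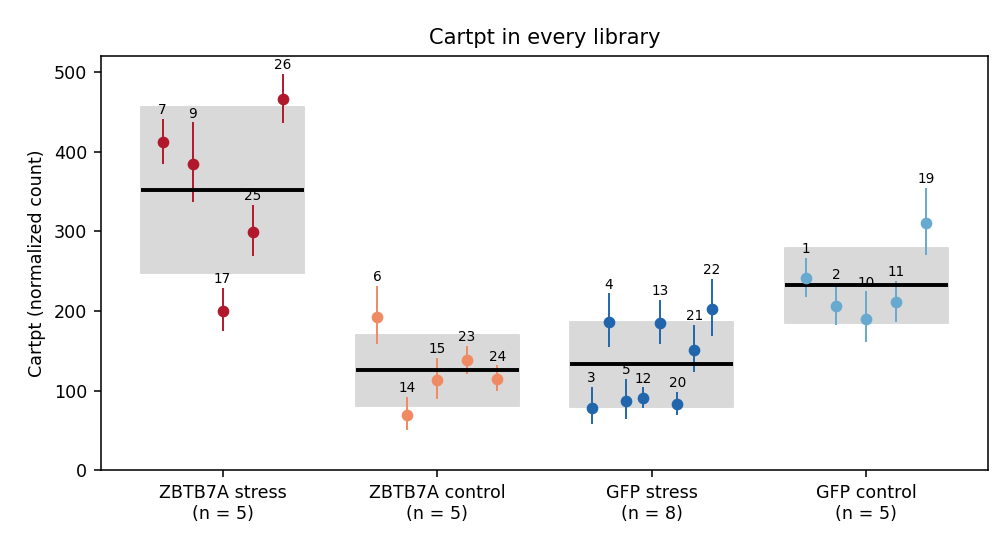
Cartpt in normalized counts (y axis, linear, from 0) in each of the 23 libraries, numbered as in their titles, by group (x axis). Points carry exact 95% Poisson intervals from the recovered reads, black lines are group means and grey boxes are mean ± SD. All 5 ZBTB7A stress libraries sit above all 5 ZBTB7A control libraries, and 7 of 8 GFP stress libraries sit below every GFP control library. The intervals of ZBTB7A stress 17 and ZBTB7A control 6 overlap.

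The order of the group means was ZBTB7A stress, GFP control, GFP stress and ZBTB7A control. The mean was 352 ± 104 in ZBTB7A stress and 232 ± 47.5 in GFP control, a gap of 120.3 normalized counts against a larger SD of 104, with 3 of 5 ZBTB7A stress libraries above every GFP control. Against GFP stress, 4 of 5 ZBTB7A stress libraries were above every library, and ZBTB7A stress 17 (200.2) was below GFP stress 22 (202.1). Both pairs of groups thus overlapped for Cartpt. Of all genes tested, 0.244% in ZBTB7A stress lay wholly above GFP control and 0.458% wholly above GFP stress. GFP stress averaged 133 ± 53.4, below GFP control by 99.1 normalized counts, which is more than either SD. ZBTB7A control averaged 125 ± 44.9 (SD, n = 5), and its gap of 7.38 normalized counts to GFP stress is smaller than the spread of either group. The top 3 libraries of all 23 were ZBTB7A stress 26, 7 and 9, and the lowest was ZBTB7A control 14.

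The depth behind these values was moderate. Cartpt rested on 46 to 894 reads per library, so that counting error alone gives a coefficient of variation between 3.34% and 14.7%. The coefficients of variation between libraries were larger, 29.6% in ZBTB7A stress, 35.8% in ZBTB7A control, 40.2% in GFP stress and 20.5% in GFP control. The lowest library, ZBTB7A control 14, had a counting interval of 50.7 to 92.3 normalized counts. Cartpt followed depth weakly, with Pearson r = 0.15 and Spearman rho = 0.18 against log2 recovered reads over the 23 libraries, r = -0.10 within groups, and r = 0.17 without the 2 libraries farthest from the median depth.

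The differences between groups are given as a description with no p-value, because the gene was chosen for such differences. On the scale of log2(normalized count + 1), ZBTB7A stress stood above GFP stress by 1.45 ± 0.27 (SE from a limma fit of the 4 group means over all tested genes). Without stress the sign was the other one: ZBTB7A control minus GFP control was -0.93 ± 0.30. Stress minus control was likewise of opposite sign under the 2 labels, 1.50 ± 0.30 for ZBTB7A and -0.88 ± 0.27 for GFP. The interaction, the stress difference under ZBTB7A minus that under GFP, was 2.38 ± 0.40. For scale, the median absolute log2 difference over the 16385 genes was 0.11 for ZBTB7A stress minus GFP stress and 0.07 for ZBTB7A stress minus ZBTB7A control. In that last comparison only 9 genes (0.0549%) differed by at least as much in either direction, against 129 (0.787%) for ZBTB7A stress minus GFP stress, 126 (0.769%) for ZBTB7A control minus GFP control, 393 (2.40%) for GFP stress minus GFP control and 89 (0.543%) for the interaction.

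The signs held within the number runs. The library numbers go through the groups 3 times (1 to 9, 10 to 17 and 19 to 26), and each pass is called a number run here; the labels give no meaning to the numbers. ZBTB7A stress minus GFP stress was 1.86, 0.63 and 1.45 in the 3 runs, and ZBTB7A control minus GFP control was -0.21, -1.17 and -1.30. GFP stress minus GFP control was -1.03, -0.63 and -1.18, and ZBTB7A stress minus ZBTB7A control was 1.04, 1.17 and 1.56. Each run holds 1 to 3 libraries of a group. Leaving out any 1 library kept the interaction between 2.19 and 2.57.

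Across all genes the limma fit called none in any of these comparisons (0 of 16385, 0%, at an adjusted p under 0.05), Cartpt included, and edgeR's quasi-likelihood test on the recovered reads also called 0. At an unadjusted p under 0.05 limma had 2635 genes for ZBTB7A stress minus GFP stress, 284 for ZBTB7A control minus GFP control, 1839 for GFP stress minus GFP control, 272 for ZBTB7A stress minus ZBTB7A control and 1216 for the interaction. With no differences at all, a share of about 0.05 of the 16385 genes would pass, and the 284 and 272 lie below that share. For these 5 comparisons in the same order, DESeq2 on the same reads called 81, 0, 39, 1 and 3. Cartpt was among the 81 for ZBTB7A stress minus GFP stress and was not among the 39 for GFP stress minus GFP control. The only gene for ZBTB7A stress minus ZBTB7A control was Cartpt, and the 3 for the interaction were Cartpt, Ntn1 and Kl, which encodes klotho, an FGF co-receptor of the choroid plexus. Since such results were known when Cartpt was chosen, they are no independent support for it.

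**Figure D2:**
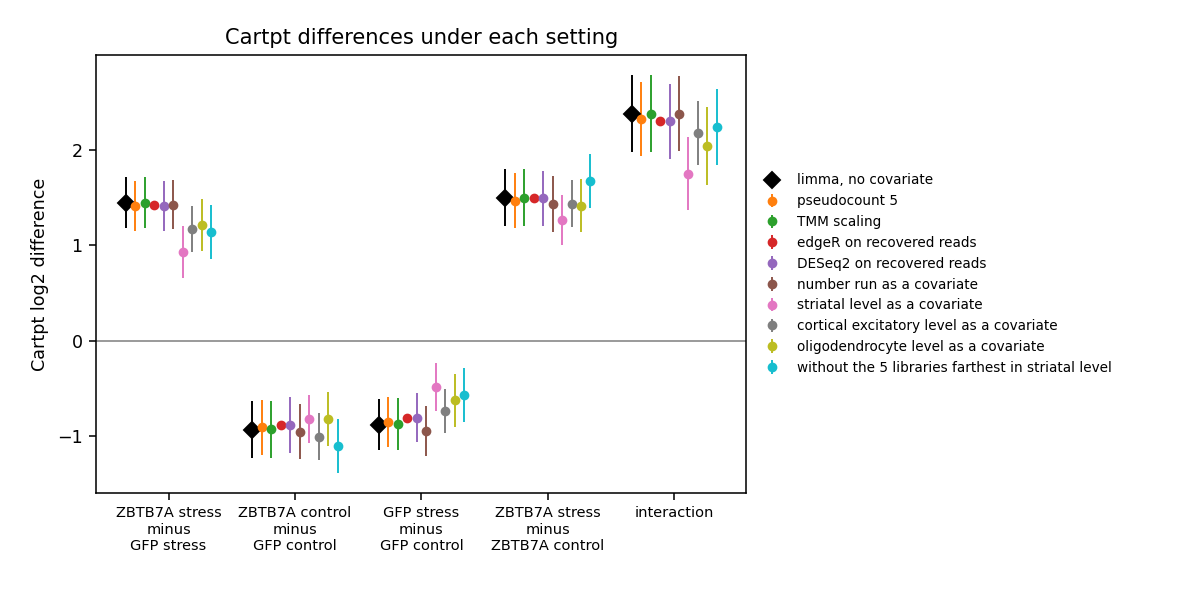
Cartpt log2 differences (y axis) in the 5 comparisons (x axis), by limma without a covariate (black diamonds) and under 9 other settings (coloured points); bars are SE, which edgeR does not give. The sign is the same under every plotted setting, and the lowest of the positive values is 0.93, with the striatal level as a covariate.

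Markers of striatal medium spiny neurons, cells of a region that borders the frontal cortex and holds the nucleus accumbens, moved with Cartpt. The level of this list of 20 genes, the mean of their centred log2 values, was 0.98 ± 0.61 in ZBTB7A stress, 0.09 ± 1.20 in ZBTB7A control, -0.99 ± 1.45 in GFP stress and 0.51 ± 0.60 in GFP control (SD, n = 5, 5, 8 and 5). Its range over libraries was 0.19 to 1.60 in ZBTB7A stress, -1.23 to 2.05 in ZBTB7A control, -2.54 to 0.66 in GFP stress and -0.41 to 1.00 in GFP control. Over the 23 libraries Cartpt and this level had Pearson r = 0.69 and Spearman rho = 0.75. The value was r = 0.58 within groups, r = 0.61 without the 2 farthest libraries and r = 0.70 among the 18 libraries left without GFP stress 5, 12, 20 and 21 and ZBTB7A control 6, which are the farthest from the median level. Of the 20 members 1, Isl1, was at 0 in at least 1 library.

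All 20 members of the striatal list had a positive r with Cartpt, with a median of 0.66, against a median of -0.003 over the 13415 other genes with a mean of 50 or more. The members of highest r were Tac1, the substance P precursor, at 0.76, the dopamine receptor Drd3 at 0.73 and Pdyn, the dynorphin precursor, at 0.73. With the striatal level as a covariate, the Cartpt log2 difference was 0.93 ± 0.27 for ZBTB7A stress minus GFP stress, -0.83 ± 0.25 for ZBTB7A control minus GFP control, -0.49 ± 0.25 for GFP stress minus GFP control, 1.26 ± 0.26 for ZBTB7A stress minus ZBTB7A control and 1.75 ± 0.38 for the interaction (SE). In that fit Cartpt rose by 0.26 ± 0.08 on the log2 scale per unit of the striatal level. ZBTB7A control 6 had the highest striatal level of all, 2.05, and a Cartpt count of 192, the highest of its group. That count was below every ZBTB7A stress library, but narrowly so for ZBTB7A stress 17 at 200.2. Their counting intervals overlapped, at 158 to 232 for ZBTB7A control 6 and 174 to 229 for ZBTB7A stress 17.

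**Figure D3:**
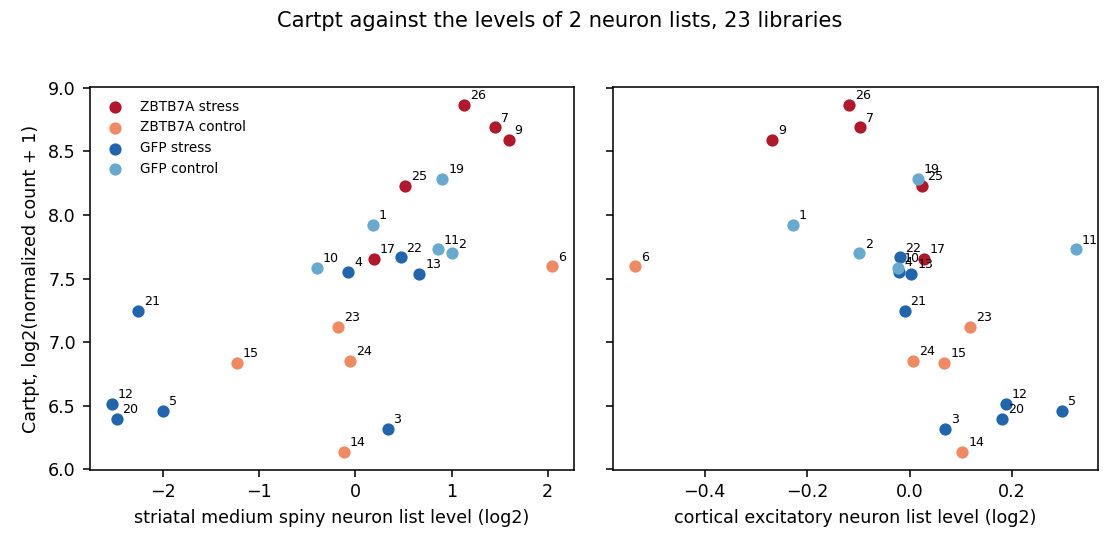
Cartpt as log2(normalized count + 1) (y axis) against the level of the striatal list (left) and of the cortical excitatory list (right) on the log2 scale (x axes); each point is 1 of 23 libraries, numbered as in its title and coloured by group. Cartpt is higher where the striatal level is higher (r = 0.69) and lower where the cortical excitatory level is higher (r = -0.52), and GFP stress 5, 12, 20 and 21 lie at the low striatal end.

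Over all 23 libraries the other cell type lists had a smaller absolute r and rho with Cartpt than the striatal list. This order did not hold under every measure: within groups the cortical excitatory and claustrum lists were about level with the striatal list, and without the 2 farthest libraries of each both were ahead of it. Cortical excitatory neuron genes had r = -0.52 and rho = -0.62, with 5 of 20 members above 0, r = -0.58 within groups and r = -0.76 without the 2 farthest libraries. Oligodendrocyte and myelin genes had r = 0.53 and rho = 0.46, with 10 of 10 members above 0, and r = 0.30 among the 18 libraries closest in striatal level. For the claustrum and endopiriform list r was 0.52 and rho 0.51 (r = 0.58 within groups and 0.64 without the 2 farthest libraries), and for the choroid plexus and ependymal list r was 0.41 and rho 0.53 (0.47 without the 2 farthest). The levels of the olfactory bulb (-0.11), cortical interneuron (0.18), astrocyte (0.07) and microglia (0.04) lists had r between -0.11 and 0.18. In that order 5 of 14, 6 of 15, 4 of 10 and 7 of 10 members were above 0. Single members could be far from the level of their list. Interneuron members ran from -0.65 (Vip) to 0.79 (Gad2), and olfactory bulb members from -0.32 (Ms4a15) to 0.68 (Pbx3). Astrocytes are the cells the vector is meant for. Once the striatal level was removed by regression from both sides, r was -0.17 for the excitatory list, 0.06 for the oligodendrocyte list and 0.23 for the claustrum list. With the oligodendrocyte level as a covariate, the Cartpt log2 difference was 1.22 for ZBTB7A stress minus GFP stress, -0.82 for ZBTB7A control minus GFP control, -0.63 for GFP stress minus GFP control, 1.41 for ZBTB7A stress minus ZBTB7A control and 2.04 for the interaction. With the cortical excitatory level these were 1.17, -1.01, -0.74, 1.44 and 2.18 in that order. Without the 5 libraries farthest in striatal level they were 1.14, -1.11, -0.57, 1.67 and 2.24, where GFP stress minus GFP control over all libraries was -0.88. The part of any cell type, striatal neurons included, in the Cartpt differences was not tested. The mean striatal level itself differed between groups, so a fit with it as a covariate cannot separate it from a group difference in Cartpt.

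Among single genes Ntn1 was the most like Cartpt. It encodes netrin-1, a secreted guidance protein for growing axons. Ntn1 had 542, 562, 460.0, 475 and 793 normalized counts in ZBTB7A stress 7, 9, 17, 25 and 26, and 402, 262, 287, 280.3 and 318 in ZBTB7A control 6, 14, 15, 23 and 24. All 5 ZBTB7A stress libraries were above all 5 ZBTB7A control libraries, as for 0.244% of the 16385 genes tested, while 0.177% lay wholly below. Its GFP stress libraries ran from 210.0 to 497 around a mean of 302 ± 96.6 (SD, n = 8), against 344 to 518 around 429 ± 76.5 in GFP control (n = 5). Over the 23 libraries Ntn1 and Cartpt had r = 0.90 and rho = 0.89, the highest r of 13415 genes. The r was 0.76 within groups, 0.88 without the 2 farthest libraries and 0.82 with the striatal level removed, where it again ranked 1 of 13415, and it stayed between 0.89 and 0.92 when any 1 library was left out. The log2 differences of Ntn1 were 0.93 ± 0.18 for ZBTB7A stress minus GFP stress, -0.46 ± 0.20 for ZBTB7A control minus GFP control, -0.54 ± 0.18 and 0.86 ± 0.20 for stress under GFP and ZBTB7A, and 1.40 ± 0.27 for the interaction (SE). Ntn1 was named for this likeness, so its differences follow from the choice and are no second observation.

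The other 9 of the 10 genes of highest r lay between 0.78 and 0.80. They were Nts, the neurotensin precursor (0.80), Gulp1, an engulfment adaptor (0.79), Slmap, a membrane-associated protein (0.79), Strip2 (0.79), the phosphodiesterase Pde1c (0.79), Gad2, a GABA-synthesizing enzyme (0.79), the purine receptor P2ry1 (0.78), the keratin Krt9 (0.78) and Ahcy, the S-adenosylhomocysteine hydrolase (0.78). Without the 2 farthest libraries of each gene they lay between 0.71 for Krt9 and 0.86 for Gad2. With the striatal level removed these 9 fell between 0.52 and 0.58, below Ntn1 at 0.82. All 10 genes were still among the 100 of highest r by that measure. Of the 13415 genes, 108 had r of 0.7 or more and 36 had r of -0.7 or less, 1.07% in all. Of the 10 genes, 9 had a promoter window, and 0 held the CRE letters.

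Gad2 and Nts were likewise highest on average in ZBTB7A stress, and lowest in GFP stress, and Nts was nearly as high in GFP control. The lowest Cartpt mean was that of ZBTB7A control, but its gap to GFP stress was smaller than the spread of either group. Gad2 averaged 7577 ± 1735 normalized counts in ZBTB7A stress, 5703 ± 2408 in ZBTB7A control, 4624 ± 725 in GFP stress and 6825 ± 1886 in GFP control (SD, n = 5, 5, 8 and 5), and its ZBTB7A groups overlapped through ZBTB7A control 6 at 9851. Nts averaged 134 ± 78.7, 78.6 ± 122, 25.3 ± 20.7 and 131 ± 98.5 normalized counts in the same order. ZBTB7A control 6, with 295 counts, stood apart from the other ZBTB7A control libraries, of which the highest had 48.4. Cartpt in that library was also the highest of its group, at 192 normalized counts, where the next had 138. At the other end the genes of lowest r were Espn, an actin-bundling protein (-0.76), Susd5 (-0.75), the hexokinase-domain gene Hkdc1 (-0.75), the lymphatic growth factor Vegfc (-0.74) and Evc2, a ciliary protein (-0.74).

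**Figure D4:**
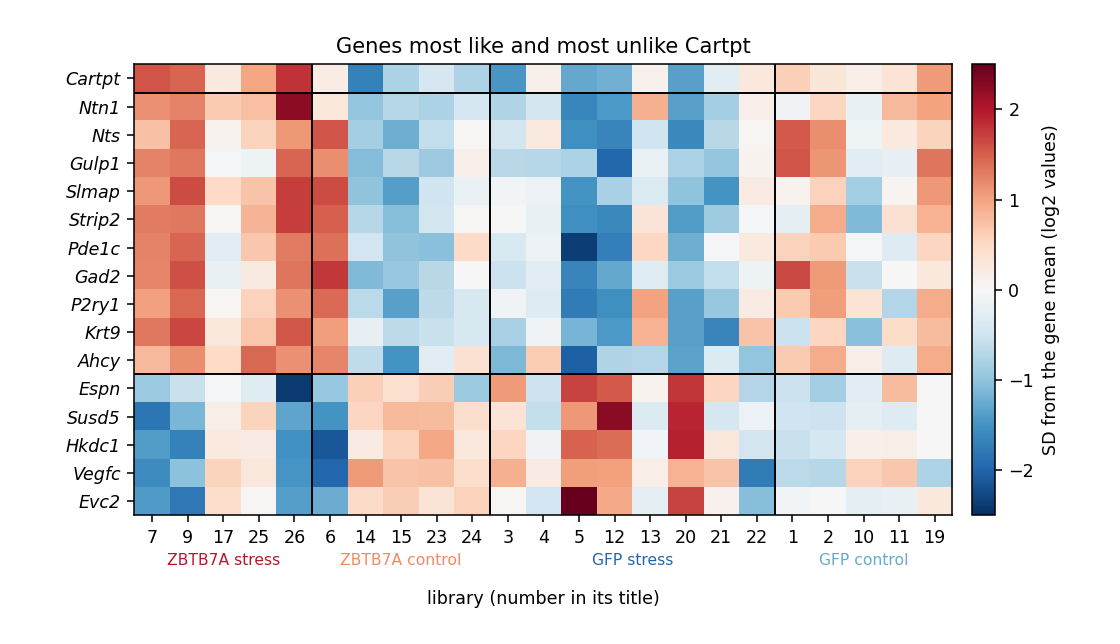
Log2 values of Cartpt, the 10 genes of highest r with it and the 5 of lowest r (rows, top to bottom), in SD from each gene's mean over the 23 libraries (colour), with libraries in columns by group. ZBTB7A stress 7, 9 and 26 are above the mean for Cartpt and all 10 genes of highest r, and ZBTB7A control 6 is high for most of those 10 genes but near the mean for Cartpt.

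Genes that make and store peptides did not follow Cartpt upward. The list of 18 held the convertases Pcsk1 and Pcsk2, which cut the CART precursor, the carboxypeptidase Cpe, the amidating enzyme Pam and the granins and docking proteins of dense-core vesicles, and all 18 were tested. Limma called 0 of 18 in each comparison, as for all genes. For ZBTB7A stress minus GFP stress 3 members were above 0 and 15 below, with a median of -0.16 beside 0.01 over all genes tested. For GFP stress minus GFP control 13 were above and 5 below, with a median of 0.11 beside -0.01. The level of the list had r = -0.46 and rho = -0.57 with Cartpt, r = -0.67 without the 2 farthest libraries and r = 0.003 with the striatal level removed, and 4 of 18 members had r above 0. Those of largest absolute r were Pam (-0.62), the vesicle protein Ptprn2 (-0.57) and Chgb (-0.51). Pam averaged 4136 ± 472 normalized counts in ZBTB7A stress, 4572 ± 403 in ZBTB7A control, 4638 ± 815 in GFP stress and 4278 ± 416 in GFP control.

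The other neuropeptide precursors split by r with Cartpt. Of 28 listed genes 20 passed the filter on low values, and limma called 0 of 20. For ZBTB7A stress minus GFP stress 5 were above 0 and 15 below, with a median of -0.24, and for ZBTB7A stress minus ZBTB7A control 11 were above and 9 below, with a median of 0.09. Those of largest r were Nts (0.80), Tac1 (0.76) and Pdyn (0.73), of which Tac1 and Pdyn are also on the striatal list. Tac1 averaged 1920 ± 666 normalized counts in ZBTB7A stress, 1062 ± 737 in ZBTB7A control, 839 ± 543 in GFP stress and 1347 ± 611 in GFP control. Pdyn averaged 777 ± 243, 455 ± 256, 403 ± 150.2 and 508 ± 168 in the same order. The level of the whole list had r = 0.32 and rho = 0.37 with Cartpt (r = 0.33 without the 2 farthest libraries), and 9 of 20 members had r above 0.

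Genes of cAMP-CREB signalling and of the activity response, which include the kinases and factors that act on CREs and genes induced by neuronal activity, were not called (0 of 21 by limma in each comparison). For ZBTB7A stress minus ZBTB7A control 3 were above 0 and 18 below, with a median of -0.03 beside 0.01 over all genes. For GFP stress minus GFP control 11 were above and 10 below, with a median of 0.03. The level of the list had r = -0.34 and rho = -0.30 with Cartpt (r = -0.44 without the 2 farthest libraries). Members of largest absolute r were 2 regulatory subunits of protein kinase A, Prkar2b (0.73) and Prkar1b (-0.60), and the transcription factor Crem (-0.46). With the striatal level removed, r was 0.40 for Prkar2b, -0.09 for Prkar1b and 0.20 for Crem.

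**Figure D5:**
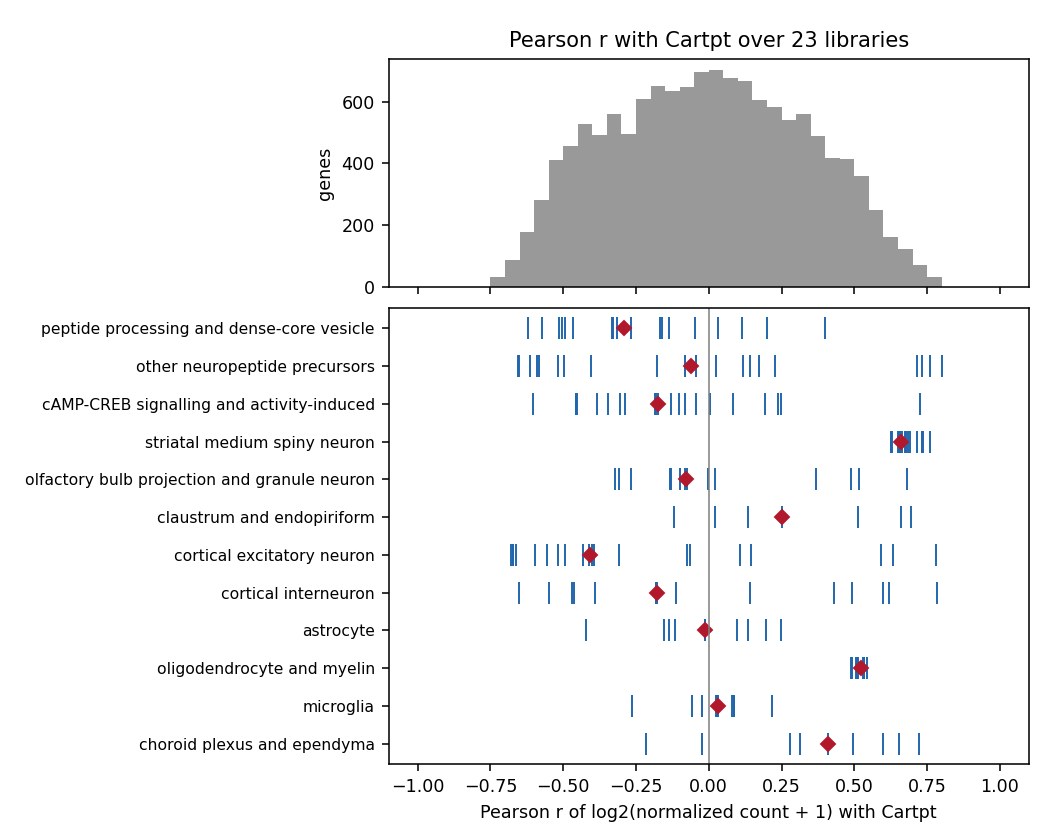
Pearson r with Cartpt over the 23 libraries (x axis). The upper panel is a histogram of the 13415 genes with a mean of 50 or more (y axis, genes), and the lower panel gives each tested member of the 12 lists (blue ticks) with the list median (red diamonds). All striatal members lie to the right, with a median of 0.66, while the peptide-processing list has a median of -0.29.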

How the data were processed

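The deposited table holds normalized counts, treated as a signal, 1 column per library and 23 in all. Tools named in the submitters' processing notes are featureCounts 2.0.1, HISAT2 2.1.0 and DESeq2 2.11.40.6, beside the builds mm10 and mm9, with no role given. Multiplied by a single factor for its library, 100% of the deposited values came out whole within 0.02 reads, so reads were recovered. Of 27606 entries 428 identical repeats were removed. RNA was extracted with Trizol and a column kit and libraries made with the TruSeq RNA v2 kit, per the labels.

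Genes with 10 or more in at least 5 libraries (16385) were fitted as log2(value + 1) by limma 3.58.1 in R 4.3.3 (4 group means, trended and robust empirical Bayes), with Benjamini-Hochberg adjustment over all of them, two-sided, at 0.05. Pearson r and Spearman rho with Cartpt carry no p. Genes were named as the 10 of highest and 5 of lowest r, the 5 of highest within-group r, and in 4 lists the 3 of largest absolute r. Kl and the genes of other small counts of calls were named after their values were seen. Alternatives were a pseudocount of 5, TMM, edgeR 4.0.16, DESeq2 1.42.0, no filter, number run or striatal level as a covariate, each library left out, and, added after the data were seen, 2 further covariates, removal of the striatal level from r and omission of 5 libraries. The scripts were tested on simulated data. The member, the 12 lists and the tests were chosen with earlier results of these data known. Poisson intervals cover counting error only. Promoter sequences are RefSeq's (GRCm38.p6). Python 3.11.15, pandas 2.3.3, numpy 2.4.6, scipy 1.17.1 and matplotlib 3.10.9 were used.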

Additional observations from a re-analysis of the deposited data

Results flagged for a closer look

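For Cartpt every ZBTB7A stress library lay above the ZBTB7A control mean of log2 values and every GFP stress library below the GFP control mean, a gap of 2.38 on the log2 scale between the 2 stress differences. Nts (4.10), Gulp1 (1.19) and Gad2 (1.00) did the same. They were named for their likeness to Cartpt. In the fits over all 16385 genes, limma and edgeR called 0 genes for this interaction at an adjusted p under 0.05 (limma had 1216 at an unadjusted p under 0.05), and DESeq2 called Cartpt but not Nts, Gulp1 or Gad2.

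Of 168 groups examined (each gene or list level named, by group, on the log2 scale), 14 held a library far from the rest by Dixon's criterion. Chance gives about 1 in 20 for independent groups. These genes and levels are related and share libraries, so whether 14 is more than chance gives was not assessed. None of the 14 was Cartpt. ZBTB7A control 6 was the library in 9 of them: it was highest for Krt9 (8.94) and lowest for Susd5 (7.06), Hkdc1 (7.03), Vegfc (5.83), Evc2 (8.06), Pam (11.9) and Prkar1b (13.7), and lowest for the level of the cortical excitatory list (-0.54). It was also lowest for the level of the peptide-processing list (-0.36). GFP stress 22 was lowest for Vegfc (5.90) and GFP control 11 highest for Ptprn2 (13.6). The olfactory bulb level was high in ZBTB7A stress 25 (1.34) and ZBTB7A control 24 (1.53), and the cortical interneuron level in GFP stress 21 (0.27).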

How the results depend on the processing

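The Cartpt level of each group moved by less than its SD under TMM scaling and without any 1 library, with means between 324 and 390.2 in ZBTB7A stress, 109 and 139.5 in ZBTB7A control, 123 and 141 in GFP stress and 212 and 242 in GFP control. No Cartpt difference changed sign under any alternative run. Without any 1 library ZBTB7A stress minus GFP stress was 1.33 to 1.63, ZBTB7A control minus GFP control -1.11 to -0.74, GFP stress minus GFP control -0.98 to -0.77, ZBTB7A stress minus ZBTB7A control 1.30 to 1.69 and the interaction 2.19 to 2.57. With the striatal level as a covariate the first was 0.93 and the interaction 1.75, the only values to move by more than the SD within groups.

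Limma called 0 genes in each comparison. Of the 16385 genes tested, DESeq2 called 81, 53 higher and 28 lower, for ZBTB7A stress minus GFP stress. For GFP stress minus GFP control it called 39 of the 16385, 3 higher and 36 lower. Of these, 5 were list members (Kl, Otx2, Folr1, Sostdc1 and Ttr), all from the 9 tested genes of the choroid plexus and ependymal list. DESeq2 called 1 gene for ZBTB7A stress minus ZBTB7A control and 3 for the interaction (1 a list member, Kl). With the cortical excitatory level limma called 4 for GFP stress minus GFP control (Gpr101, Sox1ot, Trpm3 and Cpn1) and 2 for the interaction (Cartpt and Sox1ot), and with the oligodendrocyte level 1 (Clec3b) for GFP stress minus GFP control. For the interaction, calls ran from 0 to 79 without any 1 library: 79 (6 list members) without ZBTB7A control 6, 2 (Cartpt and Ntn1) without GFP stress 13, and 1 (Cartpt) without GFP stress 22 or ZBTB7A stress 17. For ZBTB7A stress minus GFP stress they ran from 0 to 3 (Ntn1, Ptpn13 and Baz1a, without GFP stress 13). The cause was not tested.

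With the striatal level removed, r with Cartpt was 0.003 for the peptide-processing, 0.28 olfactory bulb, 0.23 claustrum, -0.17 cortical excitatory, -0.18 astrocyte, 0.0574 oligodendrocyte, -0.32 microglia and 0.12 choroid plexus levels. The astrocyte r was -0.17 within groups, the cortical excitatory r -0.76 without the 2 farthest libraries, and without the 5 libraries farthest in striatal level r was 0.30 for oligodendrocyte and -0.20 for microglia genes. No paired analysis was possible because no replicate number is shared between groups.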

Other observations

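Within groups, after each group's mean was subtracted, the genes most like Cartpt were Nars2, the mitochondrial asparaginyl-tRNA synthetase (r = 0.88), E130102H24Rik (0.85), 2700097O09Rik (0.81), the ubiquitin ligase Trim39 (0.80) and Ivns1abp (0.78). Over the 23 libraries without centring their r was 0.67, 0.54, 0.58, 0.48 and 0.77. Nars2 averaged 318 ± 30.4 normalized counts in ZBTB7A stress, 312 ± 31.5 in ZBTB7A control, 304 ± 24.1 in GFP stress and 315 ± 10.6 in GFP control (SD, n = 5, 5, 8 and 5), so its group means lay closer together than the SD within either ZBTB7A group. Of the 10 genes of highest r over all libraries, 1 (Ntn1) was also among the 10 of highest within-group r, and 8 were among the 100 highest.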
